A study of Mus musculus with 4 samples.

Results

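The Myc and Mlx network and the glucose-responsive targets of MondoA were described by 10 genes, namely Myc, Mycn, Max, Mxi1, Mnt, Mlx, Mlxip, Mlxipl, Txnip and Arrdc4. They were taken as the rows of the annotated count table whose gene symbol equals one of these names, and all 10 were found among 39017 genes. Bulk mRNA was sequenced from 4 lung tumours of male C57BL/6 KP mice, which formed 1 group of controls, with 1 library per tumour. KP mice carry a Cre-activated K-ras allele and floxed p53 alleles, and tumours were started with 1500 viral units per mouse of a lentivirus that drives Cre from the ubiquitous PGK promoter, given into the trachea. Tumours were taken at 22 weeks and 5 days. The labels also call the 4 mice heterozygous fl/wt without naming the gene, and by the study's methods a control carried either 2 intact copies or 1 floxed copy of Slc2a1, the gene of the glucose transporter Glut1. Every tumour was cut out by hand and dissociated to a cell suspension from which no cell type was sorted, so immune and stromal cells stayed in. In such bulk samples fewer cells of a type and less RNA per cell cannot be told apart. Whether the tumours came from separate mice is not stated, so p-values speak for these 4 samples only. With 1 library per tumour, differences between tumours and differences from handling or library preparation cannot be told apart.

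Myc and Mycn are transcription factors that pair with Max and bind E-box DNA, where they raise the transcription of genes for ribosome production, metabolism and division. Mxi1 and Mnt also pair with Max, bind the same DNA and repress. Mlx is the Max-like partner of MondoA, encoded by Mlxip, and of ChREBP, encoded by Mlxipl. Both of these enter the nucleus when glucose-6-phosphate is high and bind tandem E-boxes called carbohydrate response elements. Txnip and Arrdc4 are alpha-arrestins and established MondoA targets. Txnip binds thioredoxin and promotes the removal of Glut1 from the cell surface.

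Total counts were 8151613 to 8799007 per tumour, and 3 counts, the limit that a count of 0 allows, came to 0.330 to 0.370 CPM (counts per 1000000 of the normalised library size). This limit and the Poisson intervals given here cover counting error only. Of all genes, 14225 had a mean of at least 1 CPM and were tested, and all 10 genes of the network were among them. The 9 alveolar type 2 markers, the surfactant gene Sftpc among them, were abundant in every tumour and summed to 32999, 56629, 53335 and 60975 CPM in tumours 1 to 4. Leukocyte markers were present at a low level and summed to 114, 136, 269 and 156 CPM. Tumour 1 stood apart by its low alveolar type 2 sum and by a club cell marker sum of 36.4 CPM against 521 to 878 CPM in the others. Its general epithelial sum was 3972 CPM against 2488 to 2632 CPM. Of these markers, Krt8 (1261 against 589 to 676 CPM), Krt18 (1269 against 640 to 753 CPM) and Epcam were highest in tumour 1. Cdh1 was lowest there, at 842 CPM against 846 to 887 CPM. Tumour 3 stood apart by its leukocyte sum.

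Promoter sequence could be read for 9 of the 10 genes, in the RefSeq promoter windows of GRCm38.p6. These windows run from 250 bases before to 50 bases after the transcript start. No window was held for Myc. The E-box CACGTG (its own reverse complement) was searched, and so was a tandem of CACGNG and CACGNG spaced by 5 bases on either strand. Both arms had to face the same way, so arms facing each other, or with other letters, were not searched. A window without this tandem may therefore still hold another form of carbohydrate response element. The tandem was found in 1 of the 12 windows of these genes, that of Txnip, and in 16 of 32851 windows in all (0.0487%). The 250 bases before the Txnip start (chr3:96557707-96557956, plus strand) are shown because they hold it, with its 6-base arms in capitals. The first base of the tandem lies 85 bases before the start.
Txnip: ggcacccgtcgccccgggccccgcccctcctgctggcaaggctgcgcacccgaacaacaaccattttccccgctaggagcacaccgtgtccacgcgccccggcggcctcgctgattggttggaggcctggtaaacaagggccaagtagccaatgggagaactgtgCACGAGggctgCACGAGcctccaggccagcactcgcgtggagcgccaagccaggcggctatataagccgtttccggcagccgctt

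The other MondoA target, Arrdc4, had no such tandem in its window and held a CACGTG whose first base lies 193 bases before the start, in capitals (chr7:68749239-68749488, minus strand, shown 5′ to 3′). CACGTG was found for 5 of the 9 genes, Max, Mnt, Mlx, Mlxipl and Arrdc4, and for 8.09% of all genes with a window. Counted by window this was 5 of 12, and 7.15% of all windows.
Arrdc4: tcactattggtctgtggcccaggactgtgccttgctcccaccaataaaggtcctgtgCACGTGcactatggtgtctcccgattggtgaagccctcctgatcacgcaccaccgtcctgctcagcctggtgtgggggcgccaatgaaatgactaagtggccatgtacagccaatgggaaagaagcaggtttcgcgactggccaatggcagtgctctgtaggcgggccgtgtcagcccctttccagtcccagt

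Because Mnt, Mlx and Mlxipl encode factors of the network itself, 46 bases around their CACGTG (in capitals) are given as well, all on the plus strand, from chr11:74830781-74830826, chr11:101087230-101087275 and chr5:135089772-135089817.
Mnt: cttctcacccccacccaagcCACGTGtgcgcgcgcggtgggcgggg
Mlx: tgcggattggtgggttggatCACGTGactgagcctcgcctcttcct
Mlxipl: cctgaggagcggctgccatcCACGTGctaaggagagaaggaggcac
The CACGTG of Max, whose first base lies 3 bases before the RefSeq start, runs past that start and is not printed. In the GENCODE M21 annotation the Max gene, on the minus strand, begins at 76962201, downstream of this CACGTG. The Max window was also the only one whose last bases were not found in the GENCODE transcripts of its gene. All these motifs are matches of letters and no measure of binding.

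Of the activators, Myc was low and Mycn was the member that varied the most. Myc (ENSMUSG00000022346, chromosome 15, 61985391 to 61990374, GRCm38 positions of GENCODE M21) had 32.9, 17.5, 18.6 and 26.4 CPM in tumours 1 to 4, with a mean of 23.9 ± 7.20 (SD, n = 4), from 151 to 299 counts. Tumour 1 was the highest and tumours 2 and 3 lay close together at the bottom, a ratio of 1.88 between highest and lowest. Mycn (ENSMUSG00000037169, chromosome 12, 12936093 to 12941914) had 72.1, 59.7, 17.8 and 52.5 CPM (50.5 ± 23.3, SD, n = 4). Tumour 3 lay far below the others, at 144 counts against 441 to 655, and the highest value was 4.06 times the lowest. The spread of both exceeded counting noise by the chi-square test of the 4 counts against equal expression, with Benjamini-Hochberg adjustment over all genes tested (adjusted p = 1.09e-11 for Myc and 2.90e-56 for Mycn). Without tumour 3 the ratio of Mycn fell to 1.37, and its spread still passed (adjusted p = 2.80e-06). All 5 leukocyte markers were highest in tumour 3, among them Ptprc, the gene for CD45, at 83.4 CPM against 26.2 to 38.5 CPM. Of the 4 general epithelial markers, 1 was lowest in tumour 3, Epcam at 218 CPM against 371 to 600 CPM, while Cdh1, Krt8 and Krt18 were not, and the median log2 difference of the list in tumour 3 from the other tumours was -0.19. The part of cell makeup in the Mycn value was not tested.

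Mycn was therefore not clearly the higher of the 2 activators in every tumour. On the scale of CPM per kilobase of annotated exon, which allows levels of different genes to be compared, Mycn made up 64.4, 73.7, 44.0 and 62.1% of the sum of Mycn and Myc in tumours 1 to 4. Mycn was the higher in tumours 1, 2 and 4, and Myc in tumour 3. The mean log2 difference of Myc minus Mycn per kilobase was -0.68 ± 0.76 (SD, n = 4), with an exact two-sided sign-flip permutation p of 0.25 (0.25 adjusted over 5 pairs). With 4 tumours this test cannot go below 0.125, so none of the 5 pairs compared here could pass 0.05.

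Max, the partner that Myc needs to bind DNA, had 75.2, 51.3, 59.7 and 59.4 CPM (61.4 ± 9.95, SD, n = 4; ENSMUSG00000059436, chromosome 12, 76937269 to 76962201). Tumour 1 was the highest, and the other three lay within a narrow band. The repressor Mnt (ENSMUSG00000000282, chromosome 11, 74830920 to 74845725) had 24.1, 18.7, 16.4 and 21.8 CPM, again highest in tumour 1. Both passed the test (adjusted p = 7.15e-09 for Max and 0.00371 for Mnt). Without tumour 1 neither did, at an adjusted p of 0.0534 for Max and 0.0692 for Mnt, and Mnt also fell short without tumour 3 (0.0763). The repressor Mxi1 (ENSMUSG00000025025, chromosome 19, 53310518 to 53375810) was the steadiest gene of the network, at 18.7, 21.1, 22.2 and 23.1 CPM. Its highest value was 1.23 times the lowest, and a spread beyond counting noise was not detectable (adjusted p = 0.246). Mxi1 minus Mnt was -0.48 ± 0.33 (SD, n = 4) as a log2 difference per kilobase, with Mnt higher in 4 of 4 tumours (exact permutation p = 0.125, adjusted 0.208). This direction rested on the exon lengths, since without a length correction the difference was 0.083.

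Of the MondoA side, Mlxip was the main gene and Mlxipl was close to the limit of detection. Mlxip (ENSMUSG00000038342, chromosome 5, 123394798 to 123457932) had 65.2, 89.0, 93.3 and 89.3 CPM (84.2 ± 12.8, SD, n = 4). Tumours 2 to 4 were nearly equal and tumour 1 was apart and lower. Its partner Mlx (ENSMUSG00000017801, chromosome 11, 101087277 to 101092207) had 41.5, 51.9, 57.1 and 57.6 CPM (52.0 ± 7.48, SD, n = 4), with tumour 1 again the lowest. Both spreads passed the test (adjusted p = 1.04e-10 for Mlxip and 6.09e-06 for Mlx), and neither passed without tumour 1 (0.624 and 0.273). Mlxipl (ENSMUSG00000005373, chromosome 5, 135089890 to 135138382) had 0.880, 1.51, 0.617 and 1.55 CPM from 8, 13, 5 and 13 counts. The exact 95% Poisson interval of the lowest tumour ran from 0.200 to 1.44 CPM and that of the highest from 0.823 to 2.64 CPM, so a difference between tumours was not detectable at this depth (adjusted p = 0.221). Per kilobase Mlxipl made up 1.99, 2.49, 0.985 and 2.54% of the sum of Mlxipl and Mlxip. The log2 difference of Mlxip minus Mlxipl per kilobase was 5.63 ± 0.61 (SD, n = 4), in the same direction in 4 of 4 tumours (exact permutation p = 0.125, adjusted 0.208).

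**Figure D1:**
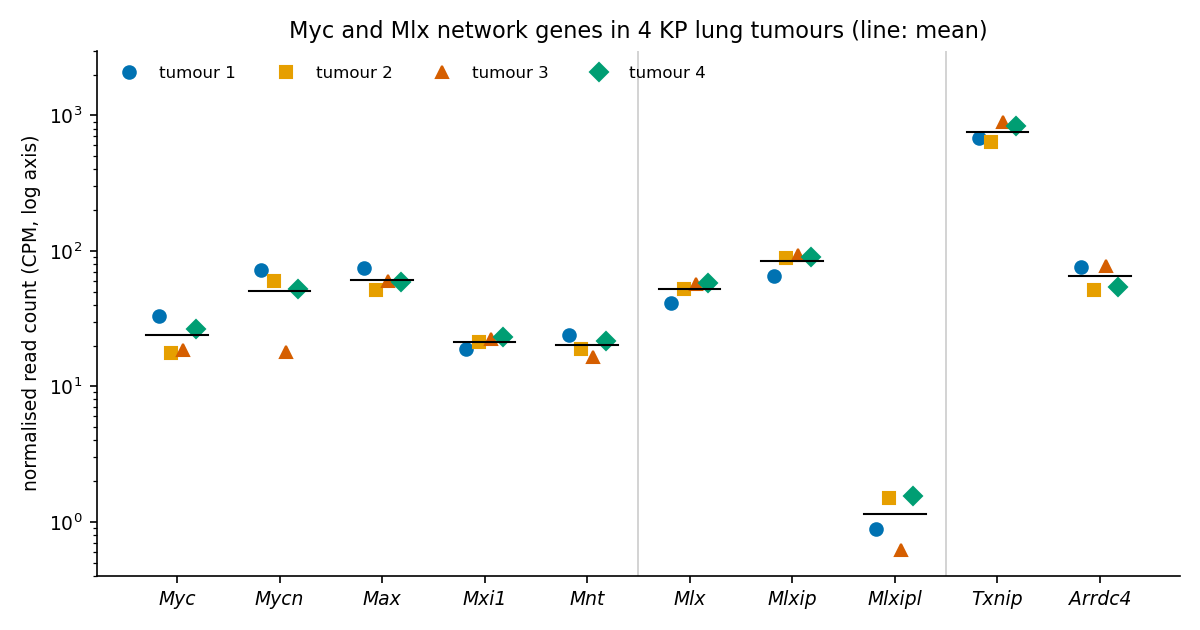
Normalised read counts (CPM, log axis) of the 10 genes, with 1 point per tumour and a line at the mean of 4 tumours; vertical lines separate the Myc side, the Mlx side and the MondoA targets. Txnip lies between 631 and 900 CPM, Mlxipl between 0.617 and 1.55 CPM, and Mycn in tumour 3 (17.8 CPM) falls well under its other values.

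The 2 dimerisation hubs moved in opposite directions in tumour 1, where Max was at its highest and Mlx at its lowest. Max made up 50.2, 35.5, 36.7 and 36.4% of the sum of Max and Mlx per kilobase in tumours 1 to 4. The log2 difference of Max minus Mlx per kilobase was 0.0085 in tumour 1 and -0.86, -0.78 and -0.80 in tumours 2, 3 and 4 (mean -0.61 ± 0.41, SD, n = 4; exact permutation p = 0.25, adjusted 0.25). Tumours 2 to 4 lay close together and tumour 1 did not overlap them. Whether Max or Mlx was higher on average depended on the gene length used. The exons of all Max transcripts together cover 3598 bases and its longest transcript 1942 bases, and with the longest transcripts the mean difference was 0.25 in favour of Max.

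The MondoA target Txnip was by far the most abundant gene of the network and ranked 103 of the 14225 genes tested by mean CPM. Txnip (ENSMUSG00000038393, chromosome 3, 96557957 to 96561883) had 680, 631, 900 and 829 CPM (760 ± 126, SD, n = 4) from 5434 to 7291 counts. Tumours 3 and 4 were higher than tumours 1 and 2, and the highest value was 1.43 times the lowest. Arrdc4 (ENSMUSG00000042659, chromosome 7, 68736995 to 68749241) had 76.5, 51.7, 76.6 and 53.9 CPM (64.7 ± 13.8, SD, n = 4). Its values formed a high pair in tumours 1 and 3 and a low pair in tumours 2 and 4. The spread of both exceeded counting noise (adjusted p = 1.55e-112 for Txnip and 1.55e-15 for Arrdc4), without tumour 1 as well (3.23e-90 and 2.28e-11).

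Both targets were highest in tumour 3 and lowest in tumour 2, yet their profiles parted in tumours 1 and 4. Tumour 1 was low for Txnip and high for Arrdc4, and tumour 4 the reverse. The tie of tumours 1 and 3 for Arrdc4 was so close that tumour 1 was the highest when only library totals were used for scaling. Txnip minus Arrdc4 was 3.93 ± 0.32 (SD, n = 4) as a log2 difference per kilobase, in 4 of 4 tumours (exact permutation p = 0.125, adjusted 0.208). In tumours 2, 3 and 4 Mlxip was nearly the same (89.0 to 93.3 CPM) where Txnip ran from 631 to 900 CPM and Arrdc4 from 51.7 to 76.6 CPM. MondoA activity is set largely by its location in the cell, which mRNA levels do not measure. The part of MondoA in the Txnip and Arrdc4 values was not tested.

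**Figure D2:**
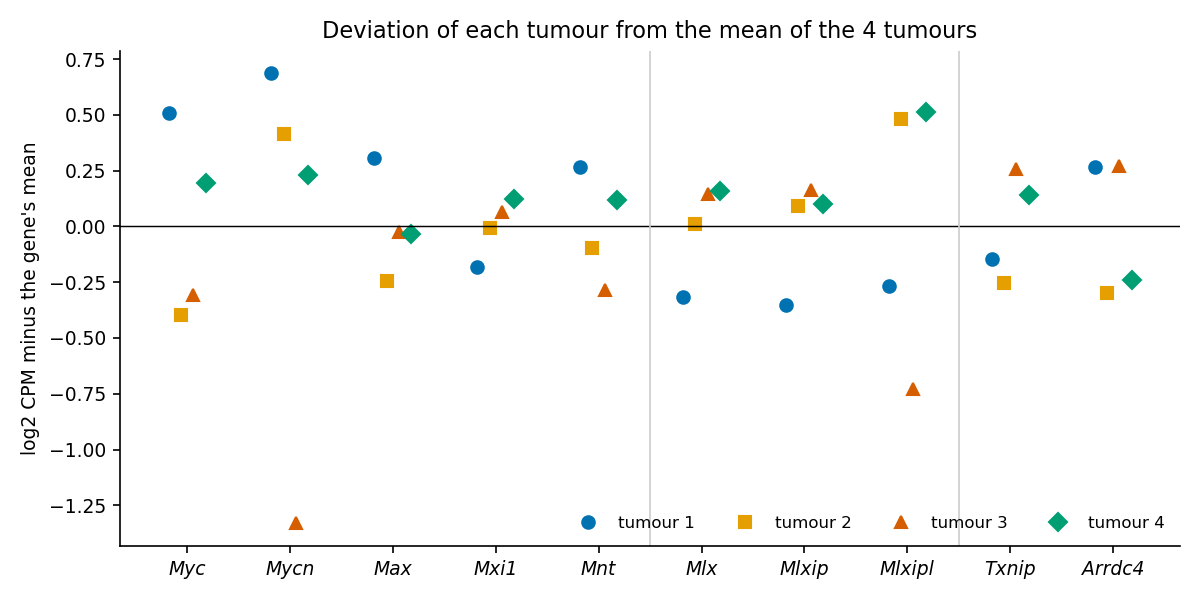
Log2 CPM of each gene in each tumour minus the gene's mean over 4 tumours, where 0 is the mean. Tumour 1 lies above 0 for Myc, Mycn, Max and Mnt and below 0 for Mxi1, Mlx, Mlxip and Mlxipl, and the lowest point is Mycn in tumour 3.

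Across the 10 genes, 8 had a spread beyond counting noise, all but Mxi1 and Mlxipl, where 76.7% of all genes tested did. Without tumour 1 the count was 4 of 10, against 62.3% of genes. A ratio of at least 2 between the highest and the lowest tumour was reached by 2 of 10, Mycn and Mlxipl, against 28.5% of genes. Without tumour 3 neither reached it, at a ratio of 1.37 for Mycn and 1.76 for Mlxipl. The SD of log2 CPM over tumours was lower than the median of all genes tested (0.29) for 6 of the 10. That median includes genes of low count, whose SD is raised by counting error. Among the 10269 genes with a mean of at least 10 CPM, ranked from the largest SD, Mnt, Txnip, Mlxip, Max and Mlx stood at places 5279 to 5928. These places are near the middle, and Mxi1 stood at 8627. The SD was 0.91 for Mycn, 0.60 for Mlxipl (from 5 to 13 counts), 0.43 for Myc and 0.31 for Arrdc4. It was 0.13 for Mxi1 and 0.22 to 0.24 for Max, Mnt, Mlx, Mlxip and Txnip. Tumour 1 was the highest for 4 of 10, Myc, Mycn, Max and Mnt (31.4% of all genes), and the lowest for 3 of 10, Mxi1, Mlx and Mlxip (30.3%). Tumour 3 was the lowest for 3 of 10, Mycn, Mnt and Mlxipl (32.6%).

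**Figure D3:**
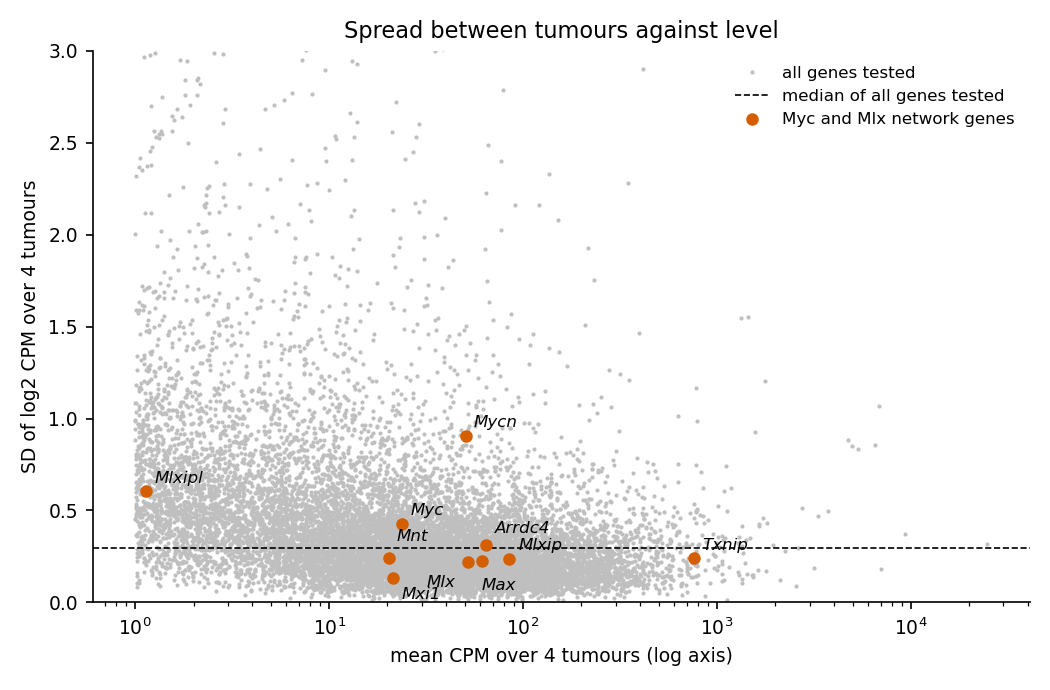
SD of log2 CPM over 4 tumours against mean CPM (log axis) for the 14225 genes tested (grey) and the 10 network genes (orange), with the median SD of all genes (0.29) dashed; 62 genes above the axis are not drawn. Mycn stands at 0.91, while Max, Mnt, Mlx, Mlxip, Mxi1 and Txnip lie under the dashed line.

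By mean level per kilobase the order was Txnip (243 CPM per kilobase), Mlx (26.03), Max (17.1), Arrdc4 (16.0), Mycn (15.3), Mlxip (10.1), Myc (8.79), Mnt (4.38), Mxi1 (3.12) and Mlxipl (0.206). Of these neighbours, Txnip lay above Mlx, Myc above Mnt, Mnt above Mxi1 and Mxi1 above Mlxipl in 4 of 4 tumours. The neighbours from Mlx to Myc changed places in at least 1 tumour. For Max and Arrdc4, Arrdc4 and Mycn, Mycn and Mlxip, and Mlxip and Myc the mean log2 difference was smaller than its SD over tumours, while for Mlx and Max it was larger (0.61 ± 0.41). No pair of neighbours could pass 0.05 in the sign-flip test. With the longest transcript as the length, Max (31.6 CPM per kilobase) passed Mlx (26.5) and Mycn (18.9) passed Arrdc4 (16.6), and the other places stayed as they were. Mxi1 and Mnt were then nearly equal, at 4.23 and 4.41 CPM per kilobase.

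The other factors of the network comprised Mycl, the Max-binding repressors Mxd1, Mxd3 and Mxd4, the Max partner Mga, and Zbtb17, through which Myc represses. Of these 6, 4 passed the spread test, Mycl, Mxd1, Mxd4 and Mga, beside 76.7% of all genes. Mycl, a paralog of Myc, had the highest ratio (4.07) and was low in tumour 4, at 10.3, 11.04, 12.6 and 3.09 CPM. Mxd4 had the lowest ratio, 1.23, and was abundant at 153.9, 173.4, 140.9 and 170.8 CPM. Of the 10 cofactors and turnover genes of Myc, 9 passed, beside the same 76.7%. Ruvbl2, an ATPase of complexes that Myc recruits, had the highest ratio (2.60), with 53.0, 30.1, 20.4 and 29.4 CPM. The lowest ratio was that of Skp2, a ubiquitin ligase subunit, at 16.4 to 19.3 CPM, and its spread did not pass (adjusted p = 0.469).

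Of 20 established Myc target genes, most of them genes of ribosome production, 19 passed the spread test (76.7% of all genes) and 13 were highest in tumour 1 (31.4% of all genes), the tumour with the highest Myc and Mycn. The median log2 difference of tumour 1 from the mean of the other tumours was 0.37 for the list and 0.01 for all genes tested. Summed over the list, the level was 5503 CPM in tumour 1 and 4187, 4198 and 4148 CPM in tumours 2, 3 and 4. Ldha, the lactate dehydrogenase gene chosen here after its values were seen, made up much of that gap, with 2032, 1196, 1450 and 1234 CPM. Mybbp1a, a nucleolar Myb-binding protein, had the highest ratio (2.13), with 206, 164, 96.7 and 151 CPM. Pa2g4, a growth regulator of the nucleolus, had the lowest (1.08) and was the 1 gene that did not pass (adjusted p = 0.344). Tfrc, the transferrin receptor, was the 1 target that was lowest in tumour 1, at 288, 402, 523 and 320 CPM. Tumour 3, with the lowest Mycn, was the lowest tumour for 12 of the 20 (32.6% of all genes). Tumour 2, with the lowest Myc, was the lowest for 3 of the 20 and the highest for 5. Of all 14225 genes tested, it was the lowest for 2758 and the highest for 2909. The median log2 difference of tumour 2 from the other tumours was 0.02 for the list and 0.006 for all genes tested.

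Other lists moved with tumour 1 as well. The proliferation list had a median tumour 1 difference of 0.40 and 6 of its 10 genes highest in tumour 1 (31.4% of all genes). All 10 passed (76.7% of all genes), from Mki67 with a ratio of 1.28 to the mitotic kinase Plk1 with 2.19. General epithelial markers had a median of 0.84, although Cdh1 was lowest in tumour 1, and alveolar type 2 markers had a median of -0.61. Of the dissociation and early response genes, 7 of 10 were highest in tumour 1, again beside 31.4% of all genes. The part of cell makeup, handling and division in the Myc target values was not tested.

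**Figure D4:**
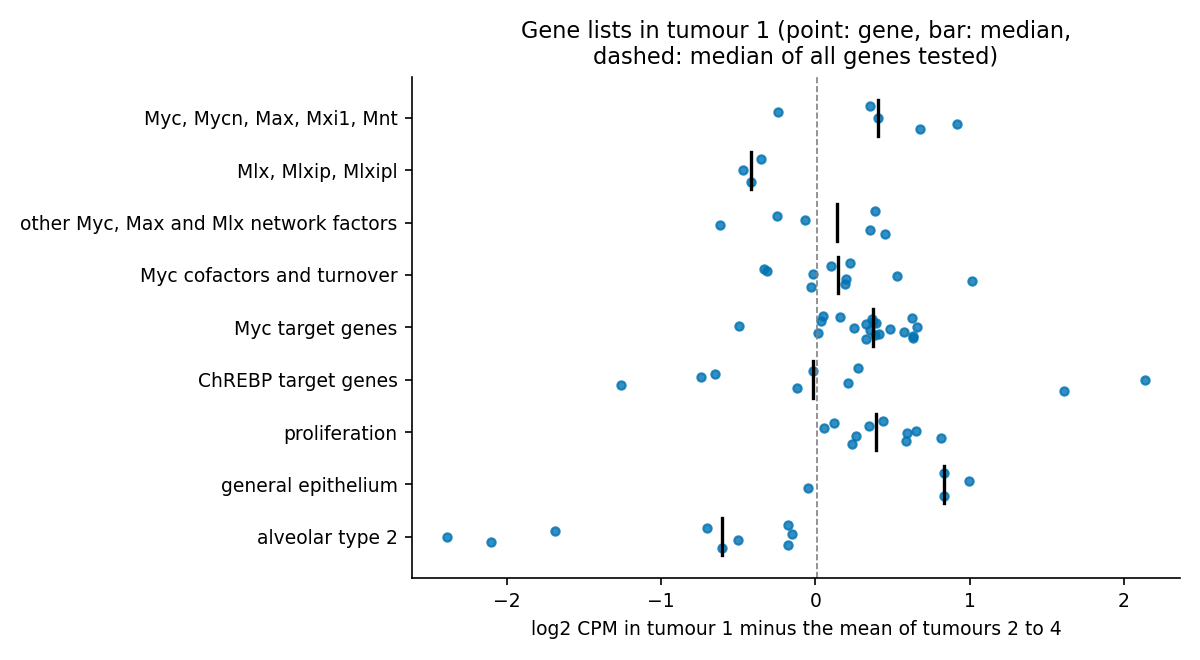
Log2 CPM in tumour 1 minus the mean of tumours 2 to 4, with 1 point per gene in each list, a bar at the list's median and a dashed line at the median of all genes tested (0.01). Medians are 0.41 for the 5 Myc side genes, -0.42 for Mlx, Mlxip and Mlxipl, 0.37 for Myc targets and -0.01 for ChREBP targets.

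ChREBP targets showed no common pattern. Of the 10 listed, 9 were tested (G6pc had 1 count in all), 8 passed the spread test (76.7% of all genes) and 5 had a ratio of at least 2 or a tumour at 0 (28.5% of all genes), namely Pklr, Acaca, Elovl6, Scd1 and Khk. Elovl6, a fatty acid elongase, had the highest ratio among the genes with counts in every tumour (9.37), with 87.9, 35.5, 9.38 and 23.8 CPM. Pklr, the liver pyruvate kinase gene, had 42, 103, 0 and 40 counts in tumours 1 to 4, or 4.62, 11.96, 0 and 4.76 CPM, where a count of 0 allows up to 0.370 CPM. Klf10, a transcription factor, had the lowest ratio (1.20) and did not pass (adjusted p = 0.0866). The median tumour 1 difference of the list was -0.01. Near-identical stretches in other annotated genes make the counts of Elovl6 (19 such genes), Acaca (75) and Ldha (8) less certain. At least 1 such gene, overlapping genes included, was also found for Mga, Mxd3, Mxd4, Ddx18, Ruvbl2, Pa2g4, Mybbp1a, Pklr, Itch, Slc2a1, Slc2a3, Hk1, Mki67 and Plk1. The same held for the markers Krt8, Krt5, Krt6a, Pecam1 and Pdgfra. Of the other Myc targets, Nop58 had 32 such genes, Odc1 9, Nop56 7 and Npm1 6. Fbl, Ptma, Ncl, Cdk4, Gnl3 and Nme1 had fewer.

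Of the 4 other alpha-arrestins, 3 were tested and 2 passed, Arrdc1 and Arrdc3 (76.7% of all genes). Arrdc1 had 138, 126, 176 and 183 CPM, and Arrdc3, which is involved in receptor turnover, had 82.7, 64.6, 107 and 107 CPM. Both were lowest in tumour 2, as were Txnip and Arrdc4, and both were highest in tumour 4. Arrdc2 was found at 5.72 to 8.44 CPM (adjusted p = 0.231), and Arrdc5 had 0 counts in every tumour, which allows up to 0.370 CPM. Of the Txnip partners, all 4 passed, beside 76.7% of all genes. Thioredoxin reductase Txnrd1 had the highest ratio (1.46) at 140, 204, 185 and 172 CPM, and Itch, the ligase that degrades Txnip, the lowest (1.28) at 126, 143, 138 and 162 CPM.

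Genes of glucose entry and trapping are set beside Txnip because glucose-6-phosphate is the signal MondoA reads. Slc2a1 had 104, 59.5, 65.4 and 44.0 CPM, highest in tumour 1 and lowest in tumour 4. Slc2a3, the gene of the transporter Glut3, had 312, 25.6, 456 and 70.6 CPM, high in tumours 1 and 3, the same tumours in which Arrdc4 was high. The hexokinase gene Hk1 had 70.2, 74.6, 106 and 64.3 CPM, and Hk2 had 141, 148, 143 and 111 CPM. Of the 7 genes tested in this list, 6 passed the spread test, beside 76.7% of all genes. With 4 tumours no correlation was computed, and a shared order of tumours is a description only.

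**Figure D5:**
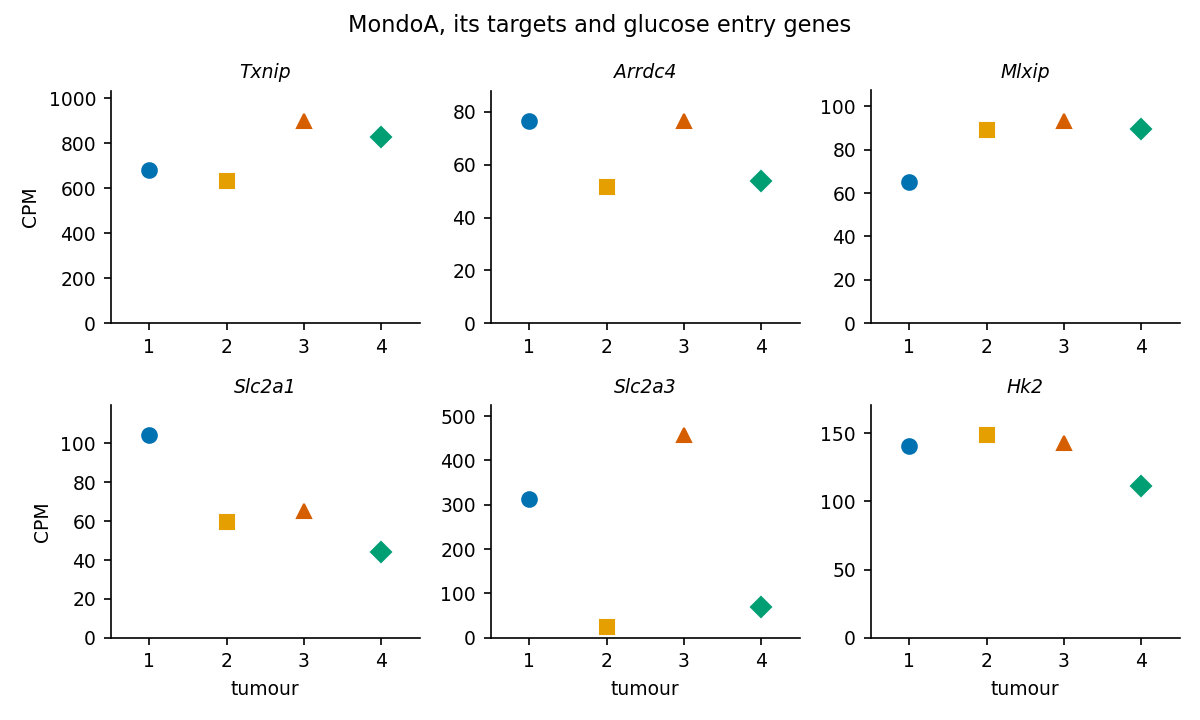
CPM per tumour (each panel from 0) of Txnip, Arrdc4, Mlxip, Slc2a1, Slc2a3 and Hk2. Arrdc4 and Slc2a3 are high in tumours 1 and 3, Txnip in tumours 3 and 4, and Slc2a1 in tumour 1 (104 CPM).

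The genes with the profile most like that of Txnip were sought among 10268 other genes with a mean of at least 10 CPM, as the smallest root-mean-square distance between centred log2 CPM over 4 tumours. They were Dcaf17 (0.011), Pink1 (0.011), Txnrd2 (0.015), Myo9a (0.019) and Cdc42ep3 (0.022). For Arrdc4 they were Acvrl1 (0.037), Pak1ip1, Pwwp2b, Msrb1 and Ednrb (0.051). For Myc they were Qpct (0.050), Ptrf, Ptprs, Nosip and Gnai1 (0.059). Arrdc4 stood at a distance of 0.28 from Txnip, and ranked 4486 of these 10268 genes by closeness. Among 10268 genes with 4 values each, close profiles can arise without any link in function, so these names are a description only.

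Some counts carry an uncertainty from neighbouring genes. No near-identical copy elsewhere was found for any of the 10. Txnip shares 606 exonic bases with the antisense gene Gm15441, which had 0.740 to 1.32 CPM, and Mlx shares 385 bases with Psmc3ip on the opposite strand, which had 2.59 to 4.29 CPM. Mlxip, Mlxipl and Mxi1 share 267, 235 and 194 exonic bases with opposite-strand genes, of which those beside Mlxip and Mxi1 had 0 counts. The library kit keeps strand, but the strand setting of the counting is not given in the sources used here.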

How the data were processed

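RNA from 4 tumours was made into stranded mRNA libraries from 500 ng of total RNA. Per the submitters' processing notes, the authors used bcl2fastq 2.17, cutadapt 1.4.2, HISAT2, featureCounts 1.4.4 and edgeR on mm10. They deposited raw counts per gene, per tumour and combined, and a table of log2 values, which was used as an alternative scaling only. All 156068 values of the single and combined count tables were equal. CPM were computed here with TMM scaling (edgeR 4.0.16), log2 CPM with 0.5 added to each count, and levels per kilobase with the union of exons of GENCODE M21 (GRCm38). Spread was tested by chi-square on the counts (3 degrees of freedom, threshold 0.05 after Benjamini-Hochberg adjustment), and pairs by the exact sign-flip permutation test. Both the chi-square test and edgeR's likelihood ratio test were tested on simulated data. Copies were stretches of at least 80 bases at 97% identity or more (BLAST 2.17.0). The genes and lists were chosen with earlier results of these data known. All 10 network genes were named, and from each pathway list the genes with the highest and lowest ratio plus Slc2a1, Slc2a3, Hk1 and Hk2. Any other gene named was chosen after its values were seen. All 155 list entries in 25 lists were matched. DESeq2 1.42.0 size factors, library totals, other filters and lengths, and leaving out each tumour were tried as alternatives. The marker lists not printed in the text (alveolar type 1, ciliated, macrophage, neutrophil, B cell, fibroblast and squamous) summed to 1036 to 1836, 16.7 to 33.9, 191 to 285, 17.5 to 37.5, 6.16 to 18.4, 297 to 528 and 0.929 to 29.2 CPM. The squamous sum was 29.2 CPM in tumour 1 against 0.929 to 2.97 CPM in the others. Krt14 (21.0 CPM) and Krt6a (7.70 CPM) carried it, while Krt5 had 4 counts and Trp63 had 0 in tumour 1. The fibroblast sum was also highest in tumour 1, though Dcn and Pdgfra were lowest there.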

Additional observations from a re-analysis of the deposited data

Results flagged for a closer look

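Of 37 results checked for a tumour far from the other three, 7 had one, where chance gives about 1 in 20 for a single result. The results share genes and the same 4 tumours, so 7 of 37 is no test against that rate. Among all genes tested, 834 (5.86%) had such a tumour. Of the network genes this held for Mlxip, whose value in tumour 1 (65.2 CPM) was far under the other three, and of the pairs for the log2 difference of Max minus Mlx per kilobase, which was far above the others in tumour 1 (0.0085). Of the gene lists it held in tumour 1 for the summed level of Myc targets (5503 CPM, high), general epithelium (3972 CPM, high) and club cell markers (36.4 CPM, low). In tumour 3 it held for T cell markers (20.4 CPM, high) and endothelial markers (268.9 CPM, high). Most of that T cell sum came from Cd2, at 12.6 CPM in tumour 3. Lck, also a T cell marker, had its smallest value in the same tumour (2.34 CPM). The endothelial markers were mixed as well. Pecam1 (110 CPM, with near-identical stretches in other genes), Tek and Emcn peaked in tumour 3. Cdh5 peaked in tumour 1 (60.2 CPM) and Kdr in tumour 2 (41.0 CPM). Of 52 genes of the pathway lists, 3 were apart, Mycl in tumour 4 (3.09 CPM), Ddx18 in tumour 1 (52.2 CPM) and Acaca in tumour 1 (60.1 CPM).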

How the results depend on the processing

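The count of network genes with spread beyond counting noise was 8 under every alternative that kept all 4 tumours, edgeR's likelihood ratio test included. At a mean of at least 10 CPM this was 8 of the 9 tested, beside 85.3% of all genes. With each tumour left out the count ran from 4 to 8, beside 62.3 to 71.9% of all genes. It was 4 without tumour 1 and 7 without tumour 3. Fewer samples also lower what such a fit can detect. The mean CPM of the 10 genes stayed within the spread between tumours in 70 of 70 alternatives. Where a tumour was left out this outcome was all but fixed in advance, because the mean of the remaining tumours cannot leave that spread. The lowest tumour stayed the same in 30 of 30 alternatives with all tumours, and the highest in 28, the exceptions being Mlx with DESeq2 size factors and Arrdc4 with library totals. Of the pair differences, 42 of 45 kept their direction. Max minus Mlx turned to 0.25 with the longest transcript and to 0.24 without length correction, and Mxi1 minus Mnt to 0.083 without length correction. Scaling between tumours cancels in these differences by construction. Over all genes the count past the test was 10905 of 14225. It lay between 8756 of 10269 (mean of at least 10 CPM) and 11323 of 21175 (no filter). The number of Myc targets past the test was 15 to 18 of 20 with each tumour left out, beside 62.3 to 71.9% of all genes. This alternative was added after seeing the data. No paired analysis was possible because there is 1 group. Depth limits Mlxipl, with 5 to 13 counts.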
